A study of Mus musculus with 12 samples.

Results

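Interferon response genes were followed through 4 groups of mouse HoxB8 cells. The set holds 46 genes that were listed by symbol, and all 46 were among the 24411 symbols of the deposited table. Of these, 39 passed the filter on low counts and were tested, out of 11578 genes tested in all. HoxB8 cells are bone marrow progenitors immortalised by a Hoxb8 protein that is active while estrogen is present. In all groups estrogen had been removed for 24 h before RNA was taken, and each population carried 2 vectors. The pMIG vector was empty or overexpressed Asxl1-MT2, which the series describes as an Asxl1 truncation, and the pMICH vector was empty or overexpressed CSF3R with the change T618I. This gave Empty/Empty (both vectors empty), Empty/T618I (T618I alone), Asxl1-MT2/Empty (truncated Asxl1 alone) and Asxl1-MT2/T618I (both), with 3 libraries each. All 4 groups are one immortalised line with added constructs on top of its own Asxl1 and Csf3r genes, and the labels do not say whether a population was 1 clone or whether the 3 libraries of a group were separate cultures. The p-values therefore cover only the spread between these libraries, and part of it may be technical.

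The library titled Empty/Empty 3 carries a genotype label that names T618I, against its title. Groups were taken from the titles, and the deposited columns bear the letters A to C, which nothing ties to the numbers of the titles. Socs3, a feedback inhibitor induced by CSF3R signalling, measured 13.8, 11.9 and 12.4 CPM across Empty/Empty against 151 to 176 CPM in Empty/T618I, so no Empty/Empty library had the Socs3 level of the T618I groups. Asxl1 ranged over 1678 to 1833 CPM in Asxl1-MT2/Empty and over 919 to 1086 with both constructs, against 134 to 167 with T618I alone and 116 to 125 with neither. Whether the reads of the constructs were assigned to the mouse genes is not given in the sources used here. CPM is a count as a share of its library's TMM-scaled total, so that libraries of different size can be compared. Results against Empty/Empty are given below with each of its libraries left out.

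Type I interferons bind a receptor made of the chains IFNAR1 and IFNAR2, whose kinases activate transcription factors in the cytoplasm. The complex ISGF3, which contains IRF9, then binds a DNA element called ISRE and switches on interferon-stimulated genes. Interferon gamma acts through another element, GAS, and induces IRF1 and many GTPases. The induced proteins sense viral RNA, stop translation, degrade RNA, block virus entry and restrain the pathway itself. Progenitor and immune cells keep a part of this programme active without infection.

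Promoters of such genes often hold these elements, so their letters are shown first. RefSeq windows of 300 bases (250 before and 50 after a start site, GRCm38.p6) were found for 39 of the 46 genes. The ISRE was searched as GAAA, any 2 bases and GAAA, or on the other strand as TTTC, any 2 bases and TTTC, and the GAS as TTCNNNGAA, which reads the same on both strands. At least 1 ISRE match lay in a window of 18 of the 39 genes, and 19 of their 49 windows held one, against 3.44% of all 32851 windows in the reference. GAS letters were in a window of 14 genes and in 14 of 49 windows, against 8.3% of all windows. Neighbouring ISRE matches shared bases in Bst2, Gbp3, Irgm1, Isg15 and Oas1a, and a GAS match overlapped an ISRE match in Bst2 and Ifitm3. A match is a run of letters and not a binding site.

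The 160 bases before the start site are printed for 7 genes, 5′ to 3′ on the gene's strand, with the matches in capitals. The start site is that of the transcript used for the window. Among the 7, it lies inside the RefSeq gene span for Oas3 (120753098 to 120777684) and Ifit3 (34583119 to 34588982). The printed bases of Ifit3 thus lie wholly within its gene span, and those of Oas3 partly. Oas3, Gbp2 and Isg15 are shown because they hold an ISRE match and rose when Asxl1-MT2 was added to T618I. Ifit1, Ifit3 and Rsad2 are shown because they hold such letters too and were too low in counts to be tested. Irf1 is shown for its GAS letters.
Oas3, chr5:120777660-120777819, minus strand: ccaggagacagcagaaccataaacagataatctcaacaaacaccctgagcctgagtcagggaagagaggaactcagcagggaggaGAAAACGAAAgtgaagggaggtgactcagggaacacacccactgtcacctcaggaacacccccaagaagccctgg
Gbp2, chr3:142620503-142620662, plus strand: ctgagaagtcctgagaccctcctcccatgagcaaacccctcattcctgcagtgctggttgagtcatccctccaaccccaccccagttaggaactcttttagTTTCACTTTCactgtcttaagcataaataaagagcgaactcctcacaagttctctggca
Isg15, chr4:156200819-156200978, minus strand: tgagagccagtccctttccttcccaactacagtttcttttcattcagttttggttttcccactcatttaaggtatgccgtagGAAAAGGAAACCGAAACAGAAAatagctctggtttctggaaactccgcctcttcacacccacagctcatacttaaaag
Ifit1, chr19:34640729-34640888, plus strand: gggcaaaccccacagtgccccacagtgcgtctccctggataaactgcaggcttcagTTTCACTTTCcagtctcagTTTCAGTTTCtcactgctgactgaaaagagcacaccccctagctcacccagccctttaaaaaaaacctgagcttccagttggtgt
Ifit3, chr19:34583369-34583528, plus strand: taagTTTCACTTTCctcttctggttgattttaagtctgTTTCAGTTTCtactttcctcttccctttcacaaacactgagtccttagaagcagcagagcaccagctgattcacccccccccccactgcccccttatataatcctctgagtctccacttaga
Rsad2, chr12:26456453-26456612, minus strand: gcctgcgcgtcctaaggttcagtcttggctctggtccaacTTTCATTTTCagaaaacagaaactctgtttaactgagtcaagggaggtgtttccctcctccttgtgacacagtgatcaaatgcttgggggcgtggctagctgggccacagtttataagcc
Irf1, chr11:53769854-53770013, plus strand: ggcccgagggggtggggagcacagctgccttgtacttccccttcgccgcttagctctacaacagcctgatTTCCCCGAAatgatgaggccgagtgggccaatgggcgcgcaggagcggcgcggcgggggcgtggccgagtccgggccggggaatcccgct

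Oas3 had its match 75 bases before the start site and Gbp2 59 bases before it. The 3 overlapping matches of Isg15 began at 78, 72 and 66 bases. Ifit1 held matches at 104 and 85 bases, and Ifit3 at 156 and 122 bases. Among the 21 genes with a window that were higher in Asxl1-MT2/T618I than in Empty/T618I, 8 held an ISRE match and 7 a GAS match. In all, 27 genes were higher in that comparison, and Oas2, Zbp1, Parp9, Parp14, Dhx58 and Rtp4 among them had no window. Each gene that was tested and not called had one. Among the 11 genes with a window that were tested and not called in that comparison, 6 held an ISRE match and 6 a GAS match. Of the 6 untested genes with a window, 3 held an ISRE match and 0 a GAS match. ISRE letters in the window thus occurred among genes that rose, genes that were not called and genes too low to be tested.

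**Figure D1:**
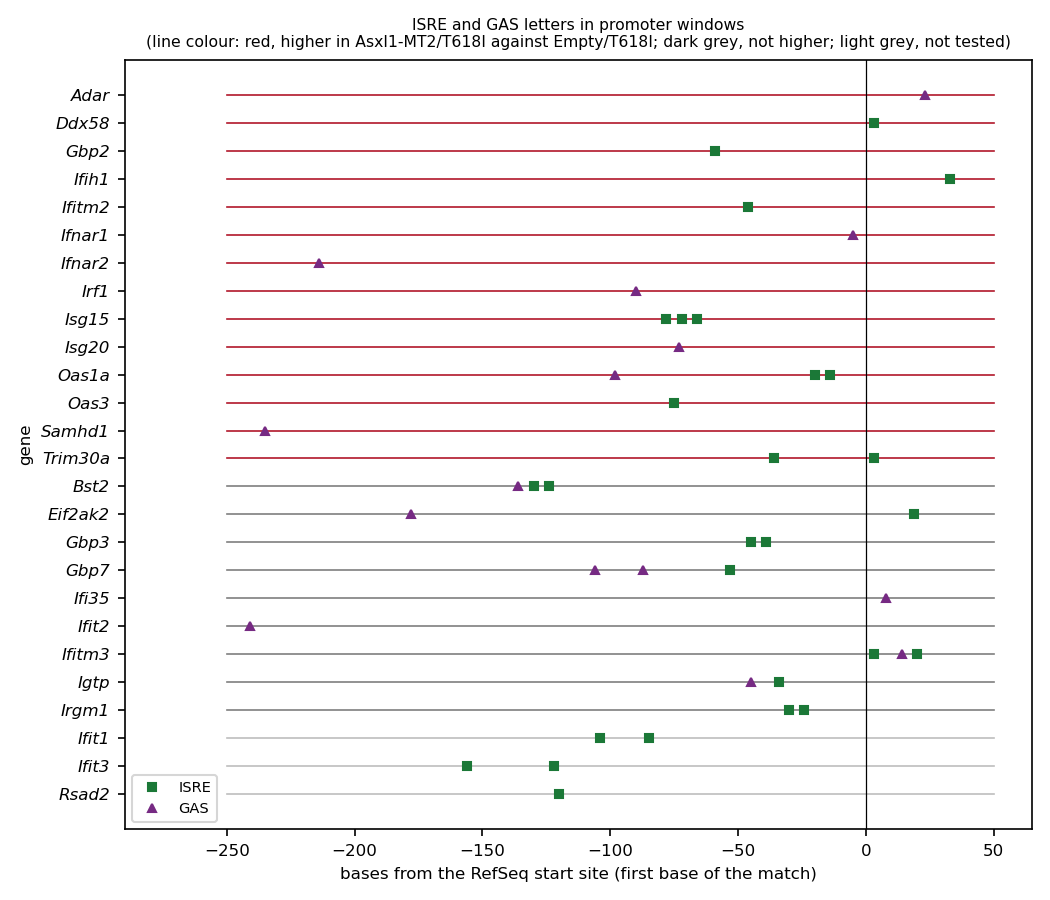
Positions of ISRE (squares) and GAS (triangles) matches in the RefSeq windows of the listed genes, in bases from the start site, one line per gene. Red lines are genes higher in Asxl1-MT2/T618I than in Empty/T618I, dark grey lines genes not higher, and light grey lines the untested genes Ifit1, Ifit3 and Rsad2. Squares stand on lines of all 3 colours, and Isg15 has 3 overlapping matches.

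Library totals ran from 9341984 to 10252291 counts, and on the scaled CPM used here the 3-count limit for a gene with no reads lies between 0.286 and 0.319 CPM. Between 42 and 45 of the 46 genes had at least 1 count in each library. A gene was called when its edgeR quasi-likelihood p, adjusted over all 11578 genes by the Benjamini-Hochberg method, was under 0.05. Each log2 fold change stands with its standard error (SE), each mean with the SD of 3 libraries, and values by library in the order A, B, C. For edgeR the SE was worked back from the test, as the size of the log2 fold change over the square root of its F statistic. The scale is CPM throughout, without a correction for gene length, so levels are compared between libraries and not between genes.

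With both constructs, 22 of the 39 tested interferon response genes were called higher than in each of the other 3 groups, as were 16.2% of all tested genes. Against Empty/T618I, 27 of 39 rose in Asxl1-MT2/T618I and 1 fell, where 25.4% of all tested genes rose and 18.5% fell. Their median log2 fold change was 0.59, with 0.01 over all tested genes. Against Asxl1-MT2/Empty, 25 rose and 0 fell (26.9% and 22.8% of all tested genes), and against Empty/Empty 28 rose and 0 fell (27.5% and 23.1%). With T618I alone, 16 rose and 3 fell against Empty/Empty (17.6% and 15.9%), with a median of 0.37. With truncated Asxl1 alone, 1 rose and 0 fell (1.24% and 0.622%), with a median of 0.02. For genes lower, edgeR gave an unadjusted p under 0.05 in 2 with truncated Asxl1 alone, 0 in Asxl1-MT2/T618I against Asxl1-MT2/Empty and 1 against Empty/Empty, and DESeq2 called 0 in each of these. Each group enters more than 1 of these comparisons, so the counts are not independent of each other.

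Larger changes were counted too. In Asxl1-MT2/T618I, 11 genes were at least 2-fold higher than in Empty/T618I and passed the test (8.48% of all tested genes), 18 were at least 2-fold higher than in Asxl1-MT2/Empty (11.6%), and 18 than in Empty/Empty (12.1%). With T618I alone, 6 were at least 2-fold higher (7.66%) and 1 was at least 2-fold lower (3.96%). With 1 Empty/Empty library left out, 15 to 16 genes rose and 3 fell with T618I alone, and 27 to 28 rose and 0 to 1 fell with both constructs. Over all genes, those fits called, in either direction, 3189 to 3952 with T618I alone and 5312 to 5530 with both constructs. The 1 call for truncated Asxl1 alone, Parp14, was lost without any 1 of the Empty/Empty libraries.

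**Figure D2:**
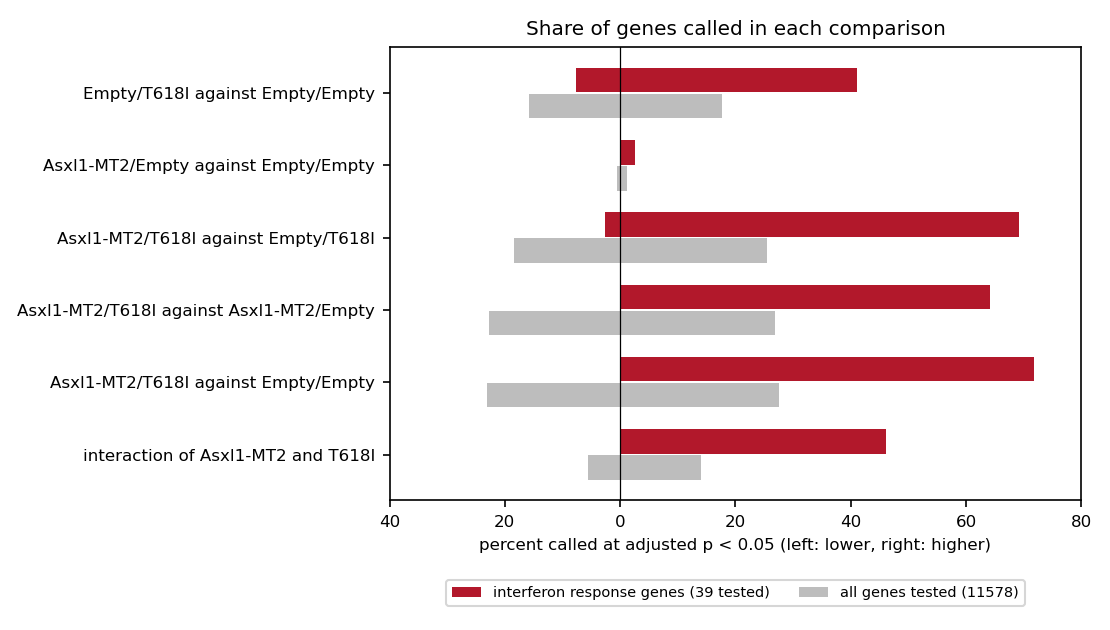
Percent of the 39 tested interferon response genes (red) and of all 11578 tested genes (grey) that were called higher (right) or lower (left) in each comparison. The red bars to the right reach 69.2% for Asxl1-MT2/T618I against Empty/T618I and 2.56% for Asxl1-MT2/Empty against Empty/Empty.

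**Figure D3:**
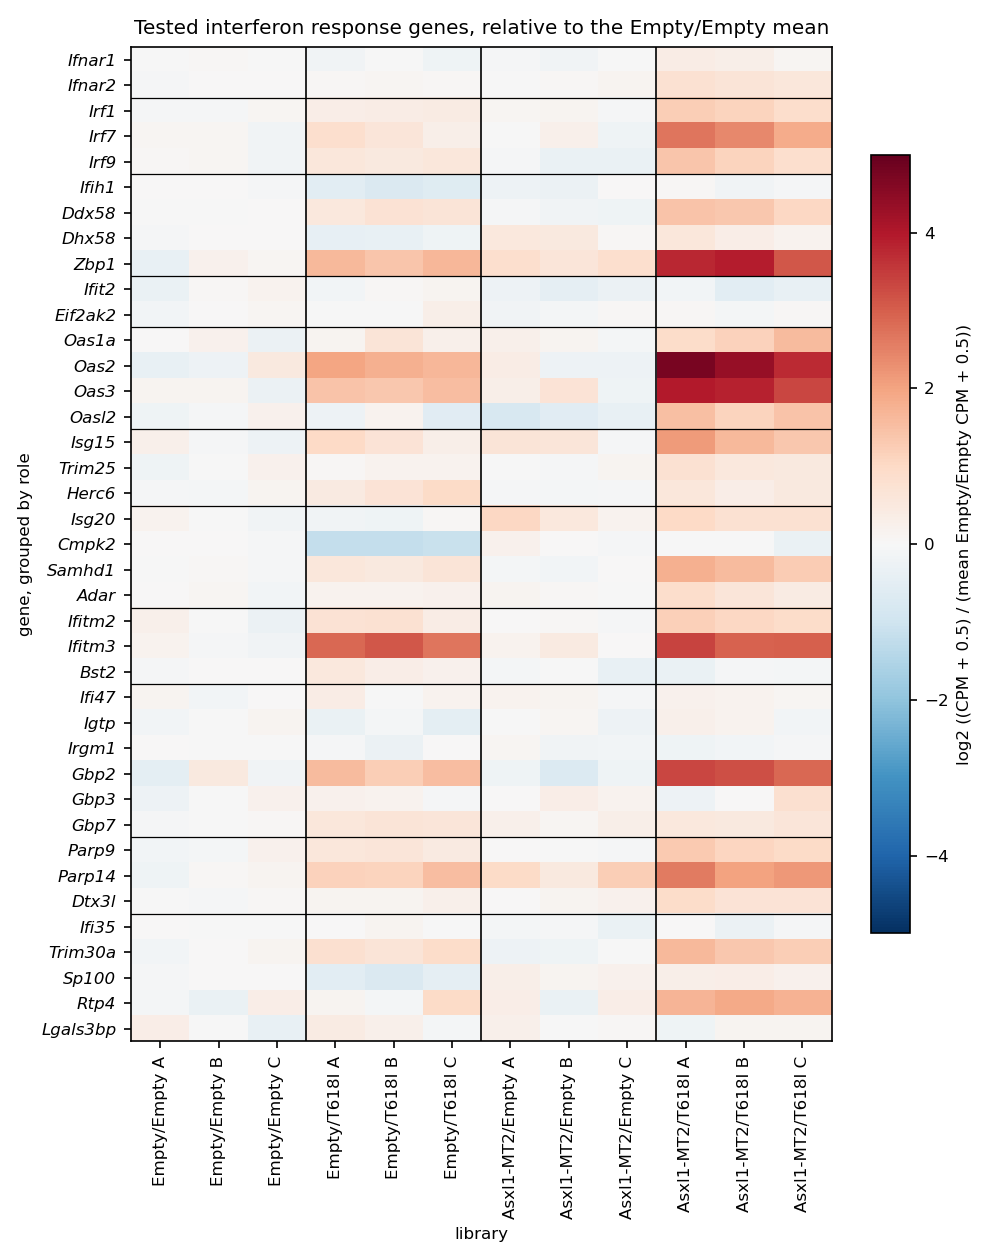
Level of each tested gene in each library as log2 of (CPM + 0.5) over (mean Empty/Empty CPM + 0.5), with genes grouped by role and lines between groups. Red is above the Empty/Empty mean and blue below, with the deepest red in Oas2, Oas3 and Zbp1 of Asxl1-MT2/T618I and the blue of Cmpk2, Ifih1 and Sp100 in Empty/T618I.

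Cell type markers moved with these groups. Neutrophil genes marked the group with both constructs. The 7 markers of the neutrophil list (Ltf, Camp, Ngp, Mmp8, Cxcr2, S100a8 and S100a9) all rose in Asxl1-MT2/T618I against Empty/T618I, and their summed level was 16077 to 22389 CPM there, 2737 to 3685 in Empty/T618I, 1074 to 1897 in Empty/Empty and 1507 to 2266 in Asxl1-MT2/Empty. Of the 10 monocyte and macrophage markers 7 were tested and 6 rose in that comparison, with a summed level of 996 to 1377 CPM against 507 to 557 CPM in Empty/T618I. Of all tested genes, 25.4% rose in that comparison. The summed level of 5 mast cell and basophil markers was higher in both T618I groups, at 1738 to 3261 CPM in Empty/T618I and 1590 to 1770 in Asxl1-MT2/T618I. It was 625 to 759 CPM in Empty/Empty and 332 to 414 in Asxl1-MT2/Empty. Of these 5 markers, 4 fell and 0 rose in Asxl1-MT2/T618I against Empty/T618I, where 18.5% of all tested genes fell. The macrophage genes C1qa and C1qb had 0 and 3 counts in the 3 Asxl1-MT2/T618I libraries together. The part of these markers in the interferon gene results was not tested, and in bulk RNA fewer cells of a type and less RNA per cell cannot be told apart. Progenitor markers were present in all groups, with Mpo, Elane, Prtn3, Ctsg, Kit, Cd34 and Ms4a3 summing to 33972 to 43061 CPM in Empty/Empty, 38278 to 42815 in Asxl1-MT2/Empty, 16104 to 19232 in Empty/T618I and 14225 to 18844 in Asxl1-MT2/T618I.

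Cells that make interferon in quantity were hardly seen. Siglech and Ly6d, markers of plasmacytoid dendritic cells, had 0 counts in all 12 libraries, and of the 7 markers in that list only Tcf4, which other cells express as well, passed the filter. The 6 markers of T, B and NK cells had 76 counts over all 12 libraries together. The 21 interferon genes of the ligand list (alpha subtypes, beta, epsilon, kappa, zeta, gamma and lambda) had 5 counts in all, and 19 of them had 0. Of these 5 counts, 3 were Ifnb1 in Empty/Empty, 1 was Ifnz in Asxl1-MT2/Empty and 1 was Ifnz in Asxl1-MT2/T618I. Interferon gamma and the listed alpha genes had 0 counts, which allows up to 0.319 CPM in the library with the smallest scaled total.

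Both receptor chains were highest in the group with both constructs. Ifnar1 (chromosome 16, 91485032 to 91510523) was at 107, 99.2 and 87.3 CPM in Asxl1-MT2/T618I, against 77.7, 73.3 and 79.6 in Asxl1-MT2/Empty, 71.7, 80.1 and 70.1 in the Empty/T618I libraries, and 80.5, 84.3 and 80.5 in Empty/Empty. Ifnar2 (chromosome 16, 91372783 to 91405589) was at 149.9, 136 and 129.9 CPM in Asxl1-MT2/T618I, against 87.4, 92.3 and 97.6 in Asxl1-MT2/Empty, 90.5, 94.5 and 91.8 in the Empty/T618I libraries, and 84.2, 89.1 and 89.6 in Empty/Empty. For each chain, every Asxl1-MT2/T618I library lay above every other library. Against Empty/T618I, Ifnar1 rose by 0.40 ± 0.0861 on the log2 scale (SE, edgeR adjusted p = 0.00122) and Ifnar2 by 0.59 ± 0.0768 (edgeR adjusted p = 1.09e-05). With T618I alone neither chain passed, and the rise of Ifnar1 against Empty/Empty (edgeR adjusted p = 0.0195) did not survive the removal of Empty/Empty library A, or of Asxl1-MT2/T618I library A or B (highest edgeR adjusted p = 0.109).

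All 3 interferon regulatory factors were called higher with both constructs than in each other group, as were 16.2% of all tested genes. Irf9 (chromosome 14, 55603985 to 55610030), the DNA-binding part of ISGF3, was at 34.6, 28.7 and 23.7 CPM in Asxl1-MT2/T618I, against 12.4, 10.4 and 10.2 in Asxl1-MT2/Empty, 19.6, 18.5 and 19.4 in the Empty/T618I libraries, and 13.6, 13.9 and 11.7 in Empty/Empty. It was higher in Empty/T618I than in Empty/Empty by 0.55 ± 0.142 (edgeR adjusted p = 0.00581) and higher again in Asxl1-MT2/T618I by 0.60 ± 0.134 (edgeR adjusted p = 0.00174). The Irf9 values of the T618I groups did not overlap with each other or with those of the groups without T618I.

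Irf7 (chromosome 7, 141263183 to 141266499), which drives the genes of interferon alpha, was at 9.24, 7.41 and 4.96 CPM in Asxl1-MT2/T618I, against 0.989, 1.28 and 0.798 in Asxl1-MT2/Empty, 2.21, 1.81 and 1.36 in the Empty/T618I libraries, and 1.11, 1.09 and 0.825 in Empty/Empty. Its 3 Asxl1-MT2/T618I libraries lay above the other 9, and it rose by 1.99 ± 0.273 against Empty/T618I (edgeR adjusted p = 1.82e-05). T618I alone left it short of the threshold at 1.79 ± 0.427 against 1.01 ± 0.159 CPM (SD, n = 3; edgeR adjusted p = 0.0892). Irf1 (chromosome 11, 53770014 to 53778374), whose GAS letters are printed above, was at 85, 78.1 and 67.3 CPM in Asxl1-MT2/T618I, against 38.2, 39.95 and 34.8 in Asxl1-MT2/Empty, 46, 47.4 and 48.6 in the Empty/T618I libraries, and 34.8, 35.1 and 38.4 in Empty/Empty. Irf1 rose by 0.39 ± 0.0969 with T618I alone (edgeR adjusted p = 0.00441) and by a further 0.70 ± 0.0936 when Asxl1-MT2 was added (edgeR adjusted p = 1.46e-05). In GENCODE M21, exons of Irf7 share 45 bases with Phrf1 on the other strand and exons of Irf9 share 123 bases with Rnf31 on the same strand. The strand setting of the counting is not given in the sources used here, and no setting would separate reads of a same-strand overlap.

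**Figure D4:**
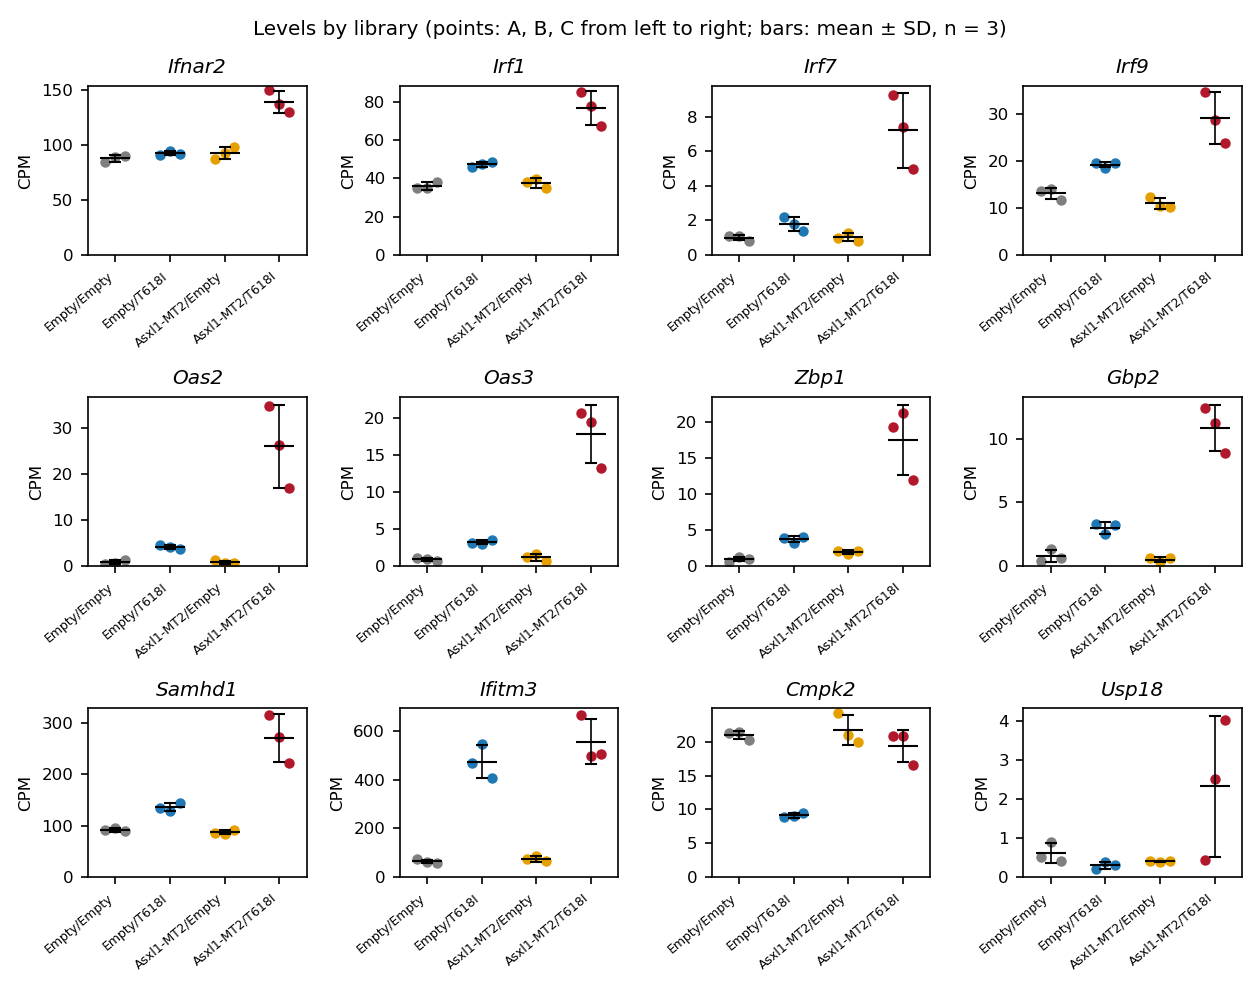
CPM of 12 genes in each library (points A, B and C from left to right) with the mean and SD of 3 libraries, on axes that start at 0. In 9 panels the red points of Asxl1-MT2/T618I stand above all other points, while Ifitm3 is high in both T618I groups, Cmpk2 is low in Empty/T618I and Usp18 is high in 2 of 3 Asxl1-MT2/T618I libraries.

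All 4 sensors of foreign nucleic acid rose when Asxl1-MT2 was added to T618I, while with T618I alone 2 rose, 1 fell and 1 was not called. Of all tested genes, 25.4% rose in the first of these comparisons, and 17.6% rose and 15.9% fell in the second. Zbp1 (chromosome 2, 173206612 to 173218959), which binds Z-form nucleic acid and can start necroptosis, was at 19.3, 21.2 and 12 CPM in Asxl1-MT2/T618I, against 2.08, 1.68 and 2.1 in Asxl1-MT2/Empty, 3.94, 3.25 and 4.07 in the Empty/T618I libraries, and 0.604, 1.19 and 1.03 in Empty/Empty. It rose by 1.98 ± 0.327 with T618I alone (edgeR adjusted p = 0.000136) and by 2.22 ± 0.22 when Asxl1-MT2 was added to T618I (edgeR adjusted p = 4.81e-07). Ddx58 (chromosome 4, 40203777 to 40239825), which encodes the RNA sensor RIG-I, was at 65.9, 62.8 and 51 CPM in Asxl1-MT2/T618I, against 23.2, 21.5 and 21.1 in Asxl1-MT2/Empty, 35.6, 40.7 and 38.3 in the Empty/T618I libraries, and 24.2, 24.4 and 24.6 in Empty/Empty. It rose by 0.65 ± 0.105 and then by 0.65 ± 0.10005 in the same 2 steps (edgeR adjusted p = 0.000116 and 5.96e-05). For both genes the 4 groups kept the order Asxl1-MT2/T618I, Empty/T618I, then the 2 groups without T618I.

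Ifih1, the gene of the RNA sensor MDA5, went the other way with T618I alone. It fell from 19.9 ± 0.529 CPM in Empty/Empty to 12.9 ± 0.861 in Empty/T618I (SD, n = 3; log2 fold change -0.63 ± 0.12, edgeR adjusted p = 0.000529) and was at 19.1 ± 1.42 CPM in Asxl1-MT2/T618I, above Empty/T618I by 0.57 ± 0.121 (edgeR adjusted p = 0.00109). Dhx58, the gene of LGP2, which tunes both of those sensors, was at 10.9 ± 1.53 CPM with both constructs and 6.52 ± 0.508 with T618I alone, a rise of 0.74 ± 0.165 (edgeR adjusted p = 0.00164). Its call against Empty/Empty (edgeR adjusted p = 0.0482) was lost in 13 of 19 alternative analyses.

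The OAS genes, whose enzymes make the oligoadenylates that activate RNase L, included the gene with the largest log2 rise among the tested genes of the set in Asxl1-MT2/T618I against each other group, Oas2. Oas2 (chromosome 5, 120730333 to 120749886) was at 34.8, 26.2 and 16.8 CPM in Asxl1-MT2/T618I, against 1.19, 0.592 and 0.599 in Asxl1-MT2/Empty, 4.61, 4.01 and 3.65 in the Empty/T618I libraries, and 0.503, 0.596 and 1.34 in Empty/Empty. Oas3 (chromosome 5, 120753098 to 120777684) was at 20.7, 19.5 and 13.3 CPM in Asxl1-MT2/T618I, against 1.19, 1.68 and 0.699 in Asxl1-MT2/Empty, 3.17, 2.96 and 3.55 in the Empty/T618I libraries, and 1.01, 0.994 and 0.619 in Empty/Empty. In both genes every Asxl1-MT2/T618I library was above every Empty/T618I library, and these were above all 6 libraries without T618I. Oas2 rose by 2.32 ± 0.407 on the log2 scale with T618I alone (edgeR adjusted p = 0.000235), by 2.66 ± 0.255 when Asxl1-MT2 was added (edgeR adjusted p = 3.59e-07) and by 4.98 ± 0.332 from Empty/Empty to both constructs (edgeR adjusted p = 1.58e-09). Oas3 rose by 1.86 ± 0.333, 2.47 ± 0.221 and 4.33 ± 0.274 in the same 3 comparisons (edgeR adjusted p = 0.000284, 1.56e-07 and 7.93e-10).

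Oas1a (chromosome 5, 120896256 to 120907544) was at 4.88, 5.85 and 7.95 CPM in Asxl1-MT2/T618I, against 2.87, 2.66 and 2.2 in Asxl1-MT2/Empty, 2.6, 3.91 and 2.92 in the Empty/T618I libraries, and 2.42, 2.78 and 1.86 in Empty/Empty. Unlike Oas2, it had its highest value in Asxl1-MT2/T618I library C, and the rise of 0.98 ± 0.239 over Empty/T618I (edgeR adjusted p = 0.00318) was lost without the 4 letter C libraries (edgeR adjusted p = 0.0543). Oasl2, an OAS-like gene (chromosome 5, 114896926 to 114912245), was at 2.44, 1.78 and 2.27 CPM in Asxl1-MT2/T618I, against 0.0989, 0.197 and 0.299 in Asxl1-MT2/Empty, 0.385, 0.668 and 0.209 in the Empty/T618I libraries, and 0.403, 0.497 and 0.722 in Empty/Empty. It rose in Asxl1-MT2/T618I against Empty/T618I by 2.31 ± 0.414 (edgeR adjusted p = 0.000254), with at most 23 counts in any library. Oasl1 did not pass the filter, with 18 counts in all 12 libraries. Reads of near-identical OAS genes can be split by the counting, so values of Oas1a in particular are uncertain.

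Isg15 (chromosome 4, 156199424 to 156200818), the ubiquitin-like protein that interferon-induced enzymes attach to targets, stayed low in every group. It was at 3.19, 2.09 and 1.65 CPM in Asxl1-MT2/T618I, against 0.791, 0.789 and 0.299 in Asxl1-MT2/Empty, 1.15, 0.859 and 0.522 in the Empty/T618I libraries, and 0.503, 0.298 and 0.206 in Empty/Empty. The Asxl1-MT2/T618I libraries lay above the others, and the rise of 1.42 ± 0.398 over Empty/T618I (edgeR adjusted p = 0.00808) was lost without Asxl1-MT2/T618I library A (edgeR adjusted p = 0.0571). Usp18 (chromosome 6, 121245906 to 121270917), which removes ISG15 and quiets the receptor, was at 0.425, 2.51 and 4.03 CPM in Asxl1-MT2/T618I, against 0.395, 0.395 and 0.399 in Asxl1-MT2/Empty, 0.192, 0.382 and 0.313 in the Empty/T618I libraries, and 0.503, 0.895 and 0.413 in Empty/Empty. Its Asxl1-MT2/T618I libraries differed: library A lay within the range of the other groups and libraries B and C above it, and it did not pass the low-count filter. With no such filter it was called higher than in Empty/T618I, by 2.91 ± 0.597 (edgeR adjusted p = 0.000115).

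The ligases of this group differed. Trim25, which ubiquitinates RIG-I, was at 143 ± 15.8 CPM in Asxl1-MT2/T618I against 103 ± 4.88 in Empty/T618I and 93.8 ± 13.7 in Empty/Empty, a rise of 0.47 ± 0.104 over Empty/T618I (edgeR adjusted p = 0.00155). Herc6, the ISG15 ligase of mice, was highest with T618I alone, at 25 ± 4.6 CPM against 15.2 ± 1.17 in Empty/Empty (log2 fold change 0.72 ± 0.131, edgeR adjusted p = 0.000329), and was at 21.1 ± 1.6 CPM in Asxl1-MT2/T618I.

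Among the IFIT genes, whose proteins bind foreign RNA and hold back its translation, none of those tested passed. Ifit1 had 11 counts and Ifit3 6 counts over all 12 libraries, although both carry 2 ISRE matches in the windows printed above. In Asxl1-MT2/T618I, Ifit1 had 6 counts in 3 libraries and Ifit3 had 1, so neither can be compared at this depth. Ifit2 was at 9.74 ± 1.48 CPM with both constructs, 9.75 ± 0.711 with truncated Asxl1 alone, 12.6 ± 1.22 with T618I alone and 12.4 ± 2.26 with neither, and passed in none of the comparisons. Eif2ak2, the gene of the kinase PKR that stops translation on double-stranded RNA, was at 44.5 ± 2.85, 42.6 ± 3.72, 47.1 ± 6.46 and 44.5 ± 3.99 CPM in the same order and was not called either.

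Enzymes that act on nucleotides and RNA held genes that moved in opposite directions with T618I alone. Samhd1 (chromosome 2, 157097534 to 157135096), which breaks down deoxynucleotides, was at 316, 273 and 223 CPM in Asxl1-MT2/T618I, against 86.5, 84.1 and 91.7 in Asxl1-MT2/Empty, 135, 128 and 144 in the Empty/T618I libraries, and 91.3, 95 and 88.6 in Empty/Empty. The Asxl1-MT2/T618I libraries were highest, the Empty/T618I libraries came next, and the other 6 lay below without overlap. It rose by 0.57 ± 0.103 with T618I alone (edgeR adjusted p = 0.000349) and by 0.995 ± 0.102 when Asxl1-MT2 was added (edgeR adjusted p = 6.98e-07).

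Cmpk2 (chromosome 12, 26469117 to 26479837), a mitochondrial nucleotide kinase, was at 20.8, 20.8 and 16.6 CPM in Asxl1-MT2/T618I, against 24.2, 21 and 19.96 in Asxl1-MT2/Empty, 8.84, 8.97 and 9.5 in the Empty/T618I libraries, and 21.2, 21.4 and 20.3 in Empty/Empty. The Empty/T618I libraries were the 3 lowest, below all other libraries. Cmpk2 fell with T618I alone (log2 fold change -1.20 ± 0.127, edgeR adjusted p = 9.58e-07), and in Asxl1-MT2/T618I it was higher than in Empty/T618I by 1.09 ± 0.128 (edgeR adjusted p = 3.35e-06), with no call against Empty/Empty (edgeR adjusted p = 0.444). Rsad2, the gene of the antiviral enzyme viperin, is the neighbour of Cmpk2 (chromosome 12, 26442743 to 26456452) and is usually induced together with it. Rsad2 was at 0.106, 0.522 and 0.93 CPM in Asxl1-MT2/T618I, against 0.395, 0.888 and 0.798 in Asxl1-MT2/Empty, 0.0961, 0.286 and 0.73 in the Empty/T618I libraries, and 0.503, 0.795 and 1.44 in Empty/Empty, and with 74 counts over all 12 libraries it did not pass the filter.

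Isg20 (chromosome 7, 78913396 to 78920396), an RNA exonuclease, was at 12.2, 10.2 and 10.1 CPM in Asxl1-MT2/T618I, against 12.3, 8.68 and 6.59 in Asxl1-MT2/Empty, 4.999, 4.96 and 6.05 in the Empty/T618I libraries, and 6.64, 5.67 and 5.06 in Empty/Empty. It rose by 1.02 ± 0.207 in Asxl1-MT2/T618I against Empty/T618I (edgeR adjusted p = 0.000723), while the 2 groups with Asxl1-MT2 overlapped each other and their difference did not pass (edgeR adjusted p = 0.318). Adar, which edits adenosines in RNA, was at 118 ± 18.7 CPM in Asxl1-MT2/T618I against 86.2 ± 1.65 in Empty/T618I and rose by 0.46 ± 0.0996 (edgeR adjusted p = 0.00132). Exons of Adar share 1365 bases with Chrnb2 on the other strand in GENCODE M21.

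The genes of membrane proteins that hold back viruses rose with T618I alone, 3 of 3, beside 17.6% of all tested genes. Ifitm3 (chromosome 7, 141009590 to 141010744) was at 663, 498 and 505 CPM in Asxl1-MT2/T618I, against 72.5, 86.9 and 64.4 in Asxl1-MT2/Empty, 467, 546 and 408 in the Empty/T618I libraries, and 72.2, 61.5 and 56.4 in Empty/Empty. All 6 libraries with T618I lay above all 6 without it, with a rise of 2.90 ± 0.145 without Asxl1-MT2 and 2.90 ± 0.144 with it (edgeR adjusted p = 1.82e-10 and 4.04e-11). Asxl1-MT2 gave no call for Ifitm3 in either setting (edgeR adjusted p = 0.646 and 0.168). Ifitm2 (chromosome 7, 140954837 to 140959686) was at 825, 733 and 686 CPM in Asxl1-MT2/T618I, against 361, 379.7 and 344 in Asxl1-MT2/Empty, 589, 612 and 462 in the Empty/T618I libraries, and 434, 355 and 290.0 in Empty/Empty. It rose by 0.62 ± 0.128 with T618I alone (edgeR adjusted p = 0.000997) and by 0.43 ± 0.127 when Asxl1-MT2 was added, and this second call (edgeR adjusted p = 0.011) was lost without Empty/T618I library C or Asxl1-MT2/T618I library A (edgeR adjusted p up to 0.0781). Bst2, which tethers budding virus to the cell, was the 1 gene of the set that fell when Asxl1-MT2 was added to T618I, from 34.7 ± 4.16 to 24 ± 2.24 CPM (log2 fold change -0.54 ± 0.119, edgeR adjusted p = 0.00156).

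Of the 6 interferon-inducible GTPases, 1 rose when Asxl1-MT2 was added to T618I, where 25.4% of all tested genes rose. Gbp2 (chromosome 3, 142620663 to 142638008), a guanylate-binding protein that attacks the vacuoles of pathogens, was at 12.4, 11.3 and 8.88 CPM in Asxl1-MT2/T618I, against 0.593, 0.296 and 0.599 in Asxl1-MT2/Empty, 3.27, 2.48 and 3.23 in the Empty/T618I libraries, and 0.403, 1.29 and 0.619 in Empty/Empty. It rose by 1.93 ± 0.351 with T618I alone (edgeR adjusted p = 0.000336) and by 1.86 ± 0.243 with Asxl1-MT2 added (edgeR adjusted p = 1.13e-05), with no overlap between the T618I groups or with the other libraries. Gbp7 was at 24.4 ± 1.08 CPM with both constructs and 25.3 ± 0.725 with T618I alone against 16.4 ± 0.722 in Empty/Empty, and rose with T618I alone by 0.62 ± 0.101 (edgeR adjusted p = 0.000118). Gbp3, Ifi47, Igtp and Irgm1 passed in none of the 6 comparisons. Igtp and Irgm1, GTPases that interferon gamma induces, were at 8.13 ± 0.917 and 26.6 ± 0.553 CPM in Empty/Empty and at 8.73 ± 1.23 and 24.1 ± 1.52 CPM in Asxl1-MT2/T618I. Ifi47, a GTPase of the same family, was at 39.5 ± 3.66 and 44.2 ± 2.25 CPM, and Gbp3 at 2.6 ± 0.491 and 3.2 ± 1.46 CPM. In GENCODE M21, exons of Igtp share 162 bases with Irgm2 and exons of Ifi47 share 111 bases with Olfr56, on the same strand.

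PARP9 and its partner DTX3L, which modify histones and host proteins, and PARP14, an ADP-ribosyltransferase, were encoded by genes of which all 3 rose when Asxl1-MT2 was added to T618I. In that comparison 25.4% of all tested genes rose. Parp14 (chromosome 16, 35831892 to 35871518) was at 42.9, 28.4 and 31.8 CPM in Asxl1-MT2/T618I, against 13.3, 9.47 and 16.2 in Asxl1-MT2/Empty, 15.5, 14.9 and 20.04 in the Empty/T618I libraries, and 5.64, 6.86 and 7.43 in Empty/Empty. It was the 1 gene of the set called with truncated Asxl1 alone, by 0.97 ± 0.216 (edgeR adjusted p = 0.0283), and this call was also lost without Asxl1-MT2/Empty library A or C or without the letter C libraries (edgeR adjusted p up to 0.127). It rose by 1.34 ± 0.211 with T618I alone and by 2.37 ± 0.203 with both constructs (edgeR adjusted p = 8.75e-05 and 3.75e-08). The Asxl1-MT2/T618I libraries were the 3 highest, and the lowest values were those of Empty/Empty.

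Parp9 (chromosome 16, 35938470 to 35972621) was at 47, 39.5 and 36.5 CPM in Asxl1-MT2/T618I, against 18.6, 18.2 and 17.6 in Asxl1-MT2/Empty, 28, 28.3 and 25.7 in the Empty/T618I libraries, and 17, 17.2 and 21.4 in Empty/Empty. It rose by 0.56 ± 0.12 with T618I alone (edgeR adjusted p = 0.00138) and by 0.59 ± 0.113 with Asxl1-MT2 added (edgeR adjusted p = 0.000503). Dtx3l, which starts next to Parp9, was at 63.7 ± 5.79 CPM in Asxl1-MT2/T618I against 42.7 ± 2.19 in Empty/T618I, a rise of 0.58 ± 0.0903 (edgeR adjusted p = 6.88e-05). Exons of the 2 genes share 458 bases on opposite strands in GENCODE M21, so their counts may not be fully separate.

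Trim30a (chromosome 7, 104409025 to 104465193), which dampens Toll-like receptor signalling, was at 123, 101 and 93.8 CPM in Asxl1-MT2/T618I, against 33.2, 34 and 38.4 in Asxl1-MT2/Empty, 68.7, 61.6 and 74.3 in the Empty/T618I libraries, and 35.2, 39.6 and 42.9 in Empty/Empty. It rose by 0.80 ± 0.113 and then 0.64 ± 0.108 in the 2 steps (edgeR adjusted p = 2.84e-05 and 0.000153), with the T618I groups apart from each other and from the rest. Rtp4 (chromosome 16, 23520219 to 23614222), an interferon-induced chaperone of membrane receptors, was at 1.59, 1.88 and 1.65 CPM in Asxl1-MT2/T618I, against 0.297, 0 and 0.299 in Asxl1-MT2/Empty, 0.192, 0.0954 and 0.73 in the Empty/T618I libraries, and 0.101, 0 and 0.31 in Empty/Empty. It had at most 18 counts in any library and rose by 2.33 ± 0.598 against Empty/T618I (edgeR adjusted p = 0.00455). Sp100, a protein of nuclear bodies, fell with T618I alone from 128 ± 4.17 to 85.8 ± 8.16 CPM (log2 fold change -0.57 ± 0.0826, edgeR adjusted p = 3.31e-05) and was at 154 ± 6.12 CPM with both constructs, above Empty/T618I by 0.84 ± 0.0825 (edgeR adjusted p = 4.3e-07). Ifi35 and Lgals3bp, a secreted partner of galectins, were at 23.6 ± 2.58 and 36.7 ± 4.77 CPM with both constructs and 25.3 ± 0.611 and 36 ± 8.74 in Empty/Empty and were not called. Xaf1, an inhibitor of the survival protein XIAP, had 52 counts over all libraries, and Ifi44 had 0 counts in each of the 12.

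The tested genes thus fell into a few patterns of calls. How many of all tested genes show each pattern was not counted. Of all tested genes, 17.6% rose with T618I alone and 25.4% rose when Asxl1-MT2 was added to T618I. In 12 genes (Irf1, Irf9, Ddx58, Zbp1, Oas2, Oas3, Samhd1, Ifitm2, Gbp2, Parp9, Parp14 and Trim30a) T618I alone gave a rise and Asxl1-MT2 on top of T618I a further one. In another 12 (Ifnar1, Ifnar2, Irf7, Dhx58, Oas1a, Oasl2, Isg15, Trim25, Isg20, Adar, Dtx3l and Rtp4) T618I alone gave no call and the addition of Asxl1-MT2 gave a rise. In 3 (Ifih1, Cmpk2 and Sp100) the level fell with T618I alone and was higher again with both. In 3 (Herc6, Ifitm3 and Gbp7) the rise with T618I was not followed by a call for Asxl1-MT2. Bst2 rose with T618I (edgeR adjusted p = 0.0208, lost without Empty/Empty library A or Empty/T618I library A) and fell when Asxl1-MT2 was added. The other 8, Ifit2, Eif2ak2, Ifi47, Igtp, Irgm1, Gbp3, Ifi35 and Lgals3bp, were called in none of the 6 comparisons. The steps share the Empty/T618I libraries, so a low value there lowers the first step and raises the second.

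Whether truncated Asxl1 acted differently with and without T618I was tested with the interaction of the 2 constructs, which shares no library between the 2 effects it compares. The 2 groups with Asxl1-MT2 differed in Asxl1 level, at 1678 to 1833 CPM without T618I and 919 to 1086 CPM with it. The part of this difference in the interaction was not tested. The interaction was positive and passed for 18 of the 39 genes and negative for 0, where 14.1% and 5.51% of all tested genes passed. Its median was 0.49 on the log2 scale, against 0.02 over all tested genes. In Oas2, the effect of Asxl1-MT2 was -0.03 ± 0.557 without T618I and 2.66 ± 0.255 with it, an interaction of 2.69 ± 0.639 (edgeR adjusted p = 0.00699), which was lost without Empty/Empty library C (edgeR adjusted p = 0.0607). In Samhd1 these effects were -0.07 ± 0.105 and 0.995 ± 0.102, with an interaction of 1.06 ± 0.146 (edgeR adjusted p = 9.02e-05). For Zbp1 the interaction of 1.18 ± 0.45 did not pass (edgeR adjusted p = 0.0746), with values of 1.04 ± 0.365 without and 2.22 ± 0.22 with T618I. For Ifitm3 it was -0.00436 ± 0.192 (edgeR adjusted p = 0.994). The largest interaction was that of Oasl2, at 3.70 ± 0.751 (edgeR adjusted p = 0.00226), a gene with 1 to 3 counts in each Asxl1-MT2/Empty library. Neutrophil and monocyte markers had positive interactions too, called for 7 of 7 and 6 of 7 tested, and their part in the interferon gene interactions was not tested. Among negative interactions, 1 gene had an unadjusted p under 0.05 in edgeR, and DESeq2 called 0.

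**Figure D5:**
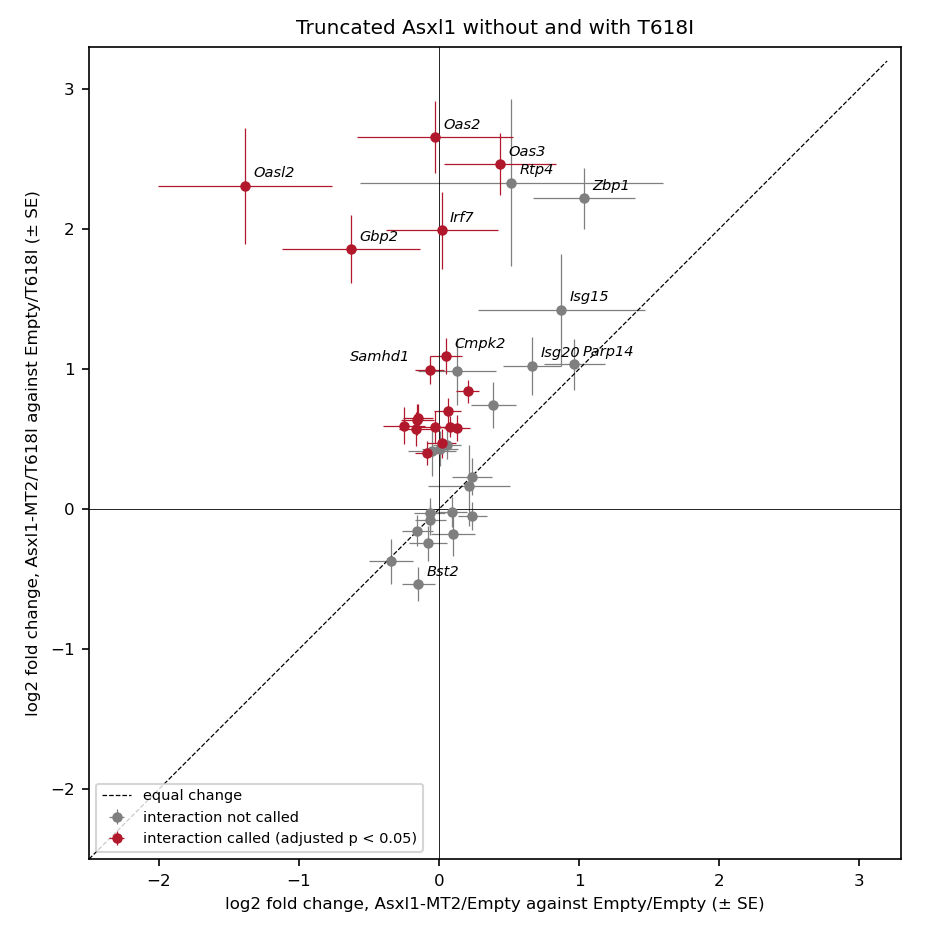
Log2 fold change with truncated Asxl1 in cells without T618I (x axis) and with T618I (y axis), each ± SE, for the 39 tested genes, with red points where the interaction passed. Irf7 and Oas2 stand near 0 on x and at 1.99 and 2.66 on y, and the dashed line marks equal change.

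Within Asxl1-MT2/T618I the libraries were not at one level. Of the 27 genes that rose against Empty/T618I, 23 had their highest value in library A and 22 their lowest in library C. The same order was not counted over all genes that rose in that comparison. The neutrophil marker sum was also highest in library A, at 22389 CPM, and lowest in library C, at 16077 CPM, and the monocyte marker sum was 1377 and 996 CPM in these libraries. The part of this in the spread of the interferon genes was not tested. Without Asxl1-MT2/T618I library A, 25 of these 27 genes kept their call, Isg15 and Ifitm2 lost it, and Usp18 passed the filter and was called higher.

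Other genes of the pathway were read from 3 lists. Of 19 genes that carry or restrain the signal, 14 rose and 1 fell in Asxl1-MT2/T618I against Empty/T618I, where 25.4% of all tested genes rose and 18.5% fell, with a median log2 fold change of 0.48. Stat2, a signal carrier of type I interferon, rose from 36.1 ± 0.564 to 48.2 ± 5.59 CPM (edgeR adjusted p = 0.00188) and was not called with T618I alone. Ifnlr1, a chain of the interferon lambda receptor, rose from 0.53 ± 0.224 to 6.8 ± 1.23 CPM, and Irf8, a factor of monocyte and dendritic cell fate that fell with T618I alone, from 0.917 ± 0.116 to 5.36 ± 1.29 CPM. The gene that fell was Socs1, the inhibitor of interferon receptor signalling, from 13.5 ± 1.25 to 6.22 ± 2.17 CPM (edgeR adjusted p = 0.000643), after it had risen with T618I alone from 0.302 ± 0.0983 CPM. Irf5, a factor downstream of Toll-like receptors, rose from 4.79 ± 0.915 to 12.6 ± 1.35 CPM. With T618I alone, 5 of the 19 genes rose and 3 fell, beside 17.6% and 15.9% of all tested genes.

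Of 15 tested genes that sense nucleic acids or pass that signal on, 7 rose and 2 (Mavs and Mb21d1) fell in the same comparison, beside the same 25.4% and 18.5% of all tested genes, with a median of 0.21. Ifi204, a DNA sensor of the Ifi200 family whose reads may be shared with its relatives, rose from 1.37 ± 0.669 to 12.6 ± 4.46 CPM, Tlr7, an endosomal RNA receptor, from 1.64 ± 0.12 to 11.6 ± 4.42 CPM and Unc93b1, the carrier of such receptors, from 61.5 ± 3.99 to 188 ± 15.6 CPM. Ikbke, a kinase that activates IRF3 and IRF7, rose from 88.4 ± 7.63 to 137 ± 7.32 CPM. Of 44 tested interferon-stimulated genes outside the set, some of them also in the first of these lists, 28 rose and 3 (Tgtp2, Cd274 and Pnpt1) fell, again beside 25.4% and 18.5%, with a median of 0.56. The genes named as fallen in these lists were picked after their values were seen, apart from Socs1. Mov10, an RNA helicase, rose from 19.9 ± 2.37 to 81.4 ± 21.8 CPM, Slfn1 from 7.57 ± 1.8 to 74.7 ± 25.4 CPM and Slfn2, a regulator of lymphocyte quiescence, from 46.1 ± 3.42 to 192 ± 46.7 CPM. Ifitm6, a relative of Ifitm3, rose from 91.6 ± 2.07 to 464 ± 119 CPM. Mx1, an antiviral GTPase that laboratory mice often lack in working form, had 0 counts in all libraries. With T618I alone, 10 of the 44 rose and 11 fell, beside 17.6% and 15.9% of all tested genes. With truncated Asxl1 alone 0 rose and 0 fell in edgeR, beside 1.24% and 0.622% of all tested genes. In edgeR 12 of the 44 had an unadjusted p under 0.05, which was not counted over all tested genes, and DESeq2 called 1.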

How the data were processed

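The deposited table holds raw read counts per gene symbol in 12 libraries of mouse HoxB8 cells. Per the submitters' processing notes, Trimmomatic, STAR, DESeq2 and the build mm10 were used; the counting tool, annotation and strand setting are not given in the sources used here. All 12 columns were matched to groups by name. From the deposited counts, edgeR 4.0.16 (R 4.3.3) kept genes with filterByExpr, scaled by TMM and fitted a quasi-likelihood model with 4 group means over 12 libraries. The 5 pairwise contrasts and the interaction were tested, with Benjamini-Hochberg adjustment over 11578 genes. Symbols tested held 99.9% of counts. TMM factors, which correct for composition, were 0.919 to 0.959 in the 3 Asxl1-MT2/T618I libraries and 1.01 to 1.03 in the other 9. Limits of 3 counts cover counting error only. The fit was tested on simulated counts. Alternatives were DESeq2 1.42.0, RLE scaling, no filter, 2-group fits, a block by column letter, and libraries left out.

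The members and gene lists were chosen with earlier results of these data known. By rule, values in all libraries are given for members whose called log2 fold change reached 1 in size in any pairwise contrast and for Ifnar1, Ifnar2, Irf1, Irf7, Irf9, Isg15 and Usp18. From each pathway list up to 4 called genes with the largest change were named, and Stat2. An item of these lists is not reported here. Positions and promoter windows are from RefSeq on GRCm38.p6, with the start site at the first base of the transcript, and exon overlaps from GENCODE M21.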

Additional observations from a re-analysis of the deposited data

Results flagged for a closer look

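The effect of truncated Asxl1 differed with and without T618I, by the interaction term of the edgeR fit, for 18 of the 39 tested genes, and the log2 interaction was positive in each. Of all tested genes, 14.1% had a positive and 5.51% a negative interaction that passed. Neutrophil and monocyte markers had called positive interactions too, 7 of 7 and 6 of 7 tested. Among the receptors and interferon regulatory factors the log2 interaction was 0.49 for Ifnar1, 0.51 for Ifnar2, 0.64 for Irf1, 1.97 for Irf7 and 0.85 for Irf9. Among the RNA sensors it was 0.74 for Ifih1 and 0.80 for Ddx58, and among the OAS genes 2.69 for Oas2, 2.03 for Oas3 and 3.70 for Oasl2. Enzymes and GTPases gave 1.04 for Cmpk2, 1.06 for Samhd1 and 2.49 for Gbp2. The remaining values were 0.45 for Trim25, 0.62 for Parp9, 0.45 for Dtx3l, 0.79 for Trim30a and 0.64 for Sp100. In Ifih1, Cmpk2 and Sp100 the level with T618I alone was below that of Empty/Empty. The calls of Oas2, Trim25 and Dtx3l were lost in some of the alternative analyses. The low counts of Oasl2, 6 in the 3 Asxl1-MT2/Empty libraries together, leave its value imprecise, with an SE of 0.751.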

How the results depend on the processing

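Of 119 calls of single genes in the 6 comparisons, 108 passed in all 19 alternatives that could be fitted for them, and 0 reversed. The other 11 lost the threshold somewhere. With each library left out in turn, 15 to 16 genes were called higher and 3 lower with T618I alone, 0 to 1 and 0 with truncated Asxl1 alone, 26 to 29 and 1 to 3 in Asxl1-MT2/T618I against Empty/T618I, 25 to 27 and 0 against Asxl1-MT2/Empty, 26 to 29 and 0 to 1 against Empty/Empty, and 16 to 20 and 0 to 1 for the interaction. Over all genes, these fits called, in either direction, 3189 to 4062 with T618I alone and 60 to 276 with truncated Asxl1 alone. They called 4029 to 5408 in Asxl1-MT2/T618I against Empty/T618I, 4752 to 5963 against Asxl1-MT2/Empty and 4919 to 6073 against Empty/Empty. For the interaction they called 1646 to 2640. Without the letter C libraries, 0 genes rose with truncated Asxl1 alone, 2 fell in Asxl1-MT2/T618I against Empty/T618I and 1 had a negative interaction. Fewer samples enter that fit, yet over all genes it called more than the main fit. It called 386 with truncated Asxl1 alone, against 143 higher and 72 lower in the main fit. For the interaction it called 3144, against 1635 positive and 638 negative. The cause of the changed counts in the set was not tested. Calls near the threshold that were lost included Gbp7 in Asxl1-MT2/T618I against Asxl1-MT2/Empty (edgeR adjusted p = 0.0558 without Asxl1-MT2/Empty library B), Dhx58 in Asxl1-MT2/T618I against Empty/Empty (adjusted p up to 0.204), Bst2 with T618I alone (0.0864), Trim25 in the interaction (0.119) and Dtx3l in the interaction (0.0642), each by edgeR or DESeq2. Same-letter correlations of deviations were 0.15 to 0.22 for letters A and C among the 3 groups other than Asxl1-MT2/T618I. For letter B there they were -0.02 to 0.04, and between A and C of different groups there -0.23 to -0.12. Libraries A and C thus differed in a partly shared way in those 3 groups. Same-letter pairs with Asxl1-MT2/T618I gave -0.06 to 0.11. The letters were not taken as pairs because not every same-letter pair was over 0.1. With the letter as a replicate block, 18 genes rose with T618I alone and 20 had a positive interaction, and no count moved by over 1.5 times. Over all genes, that fit called, in either direction, 4285 with T618I alone and 2851 for the interaction. Scaling by RLE moved no median by 0.1 on the log2 scale. Genes with a few counts in all, such as Ifit1 and Ifit3, cannot be compared at this depth.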

Other observations

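Usp18, which did not pass the low-count filter, and Oas1a had their highest value within Asxl1-MT2/T618I in library C. Usp18 had 4, 24 and 39 counts in libraries A, B and C, and Oas1a was highest in library C at 7.95 CPM. Of the 27 genes that rose against Empty/T618I, 23 were highest in library A, 3 in library B and 1 in library C. This order was not counted over all genes that rose. The summed level of all 46 genes was 3423, 2969 and 2777 CPM in the same libraries, 2084 to 2316 CPM in Empty/T618I, 1416 to 1531 in Empty/Empty and 1488 to 1532 in Asxl1-MT2/Empty. Ifitm2 and Ifitm3 are the most counted of the 46 and weigh most in that sum.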
